A study of Homo sapiens with 10 samples.

Results

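The comparison of 12Z cells given IL1β with 10 µM CDD-2728 against vehicle-treated 12Z cells rests on 4 of the 10 libraries of the study, 2 per group. It asks which genes of the IL1β response stood at the vehicle level, below it or still above it when the inhibitor was present, and which genes changed only with the compound. 12Z is an immortalized epithelial line, long established, that was made from a human peritoneal endometriosis lesion. Cells grown in 10% serum were starved overnight in 2% charcoal-stripped serum, received DMSO or a JNK inhibitor for 30 min and then 10 ng/ml IL1β or none, and RNA was taken at 6 h. The groups used were IL1β plus 10 µM CDD-2728 (called 10 µM cells), IL1β plus 1 µM CDD-2728, IL1β alone (IL1β cells), and vehicle without IL1β or compound (vehicle cells). A further group, given IL1β with 1 µM of another JNK inhibitor, CDD-3013, entered the fit and the principal components. A few of its values are given for genes changed only with the compound. No group had the compound without IL1β, so an effect of the compound by itself and one that needs IL1β cannot be told apart. The 10 µM cells differ from vehicle cells by both agents. The labels do not say whether both samples of each group came from separate cultures, so the p-values measure a spread that may be technical.

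IL1β binds its receptor and activates the kinase cascades that lead to NF-κB and to the MAP kinases ERK, p38 and JNK. JNK phosphorylates JUN and related factors, which pair with FOS or ATF proteins and bind AP-1 and CRE motifs in DNA. JUN itself is a classic target of such pairs. NF-κB acts on genes for chemokines, adhesion molecules and its own inhibitors, and many of these genes carry sites for both kinds of factor. In endometriosis, IL1β is a cytokine of the peritoneal fluid, and lesion cells answer it with chemokines and prostaglandin enzymes.

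The 10 µM libraries held 18261624 and 16474440 counts and the vehicle libraries 19479416 and 17810555, and 15740 genes passed the filter on low counts. In the edgeR quasi-likelihood fit, 2870 genes (18.2% of those tested) were higher in 10 µM cells and 2586 (16.4%) lower at an adjusted p under 0.05, and 957 (6.08%) were higher and 397 (2.52%) lower by at least 2-fold. With library totals in place of TMM scaling the split was 2107 higher and 4125 lower, and the median log2 difference of all tested genes was -0.125 in place of -0.01. Without replicate 2 of the 10 µM cells 1663 genes were lower. Libraries did not overlap between 10 µM and vehicle cells for 67% of genes. On the first principal component, with 70.4% of the variance, the 10 µM libraries lay at 10.41 and 12.16, the IL1β libraries at 6.93 and 7.53 and the vehicle libraries at -47.87 and -48.09. On the second, with 14.9%, the 10 µM libraries lay at 21.43 and 21.44, the IL1β libraries at -8.69 and -9.68 and the vehicle libraries at 0.44 and -0.6. The 10 µM libraries thus sat beside IL1β cells on the first axis and apart from every other group on the second.

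The label of the line was checked against marker lists. The summed level of 12 epithelial markers was 8165 and 8788 CPM (counts scaled to library size) in 10 µM cells and 9319 and 10091 CPM in vehicle cells, most of it from the keratin KRT8. The epithelial adhesion protein EPCAM did not exceed 0.239 CPM and the basal keratin KRT5 did not exceed 0.160 CPM in any of the 4 libraries, while CDH1 stood at 12.7 and 9.68 CPM in 10 µM cells and at 11.7 and 10.5 CPM in vehicle cells. Stromal markers summed to 6654 and 6967 CPM in 10 µM cells against 7294 and 7019 CPM in vehicle cells, and mesothelial markers to 1376 and 1403 CPM in 10 µM cells against 1708 and 1768 CPM in vehicle cells. Immune markers summed to 21.5 and 23.8 CPM in 10 µM cells against 18.3 and 19.5 CPM in vehicle cells, mostly CD14, and CD3E, FCGR3A, TPSAB1 and CD163 were at 0 reads. The part of these markers in the results was not tested.

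Genes were placed by 3 differences of the same fit. An IL1β-raised gene was called (adjusted p under 0.05) and at least 2-fold higher in IL1β than in vehicle cells, which held for 679 genes (4.31% of those tested). Of these, 573 (84.4%) were still called higher than vehicle in 10 µM cells. Only 12 (1.77%) stood at the vehicle level, meaning that they were called lower than in IL1β cells, not called against vehicle, and had a 95% interval of the difference from vehicle within 1.5-fold. Another 12 (1.77%) were called lower than vehicle (7 without vehicle replicate 2 or without replicate 1 of the 10 µM cells), and 82 (12.1%) could not be placed. For these 82 genes neither a difference from vehicle nor a return to its level is shown. At the edge of the 2-fold rule, PDP1 lay just inside with an IL1β difference of 1.0002 log2 and TUBB2A just outside with 0.9958. RNA came from whole cultures, so fewer cells that express a gene and less RNA per cell cannot be told apart in any of these differences.

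**Figure D1:**
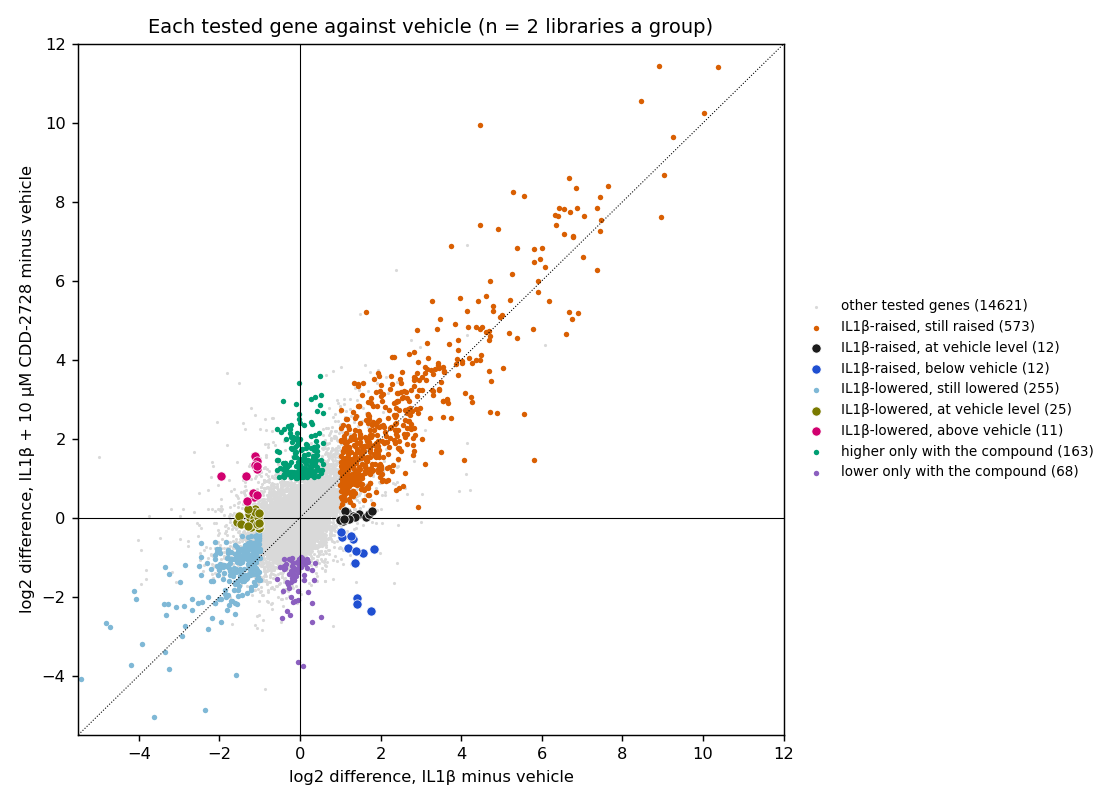
Each point is a tested gene, with its log2 difference from vehicle in 10 µM cells (vertical) and in IL1β cells (horizontal), coloured by class; both axes use the same vehicle libraries, and the dotted line marks equal differences. Of the 573 IL1β-raised genes still raised, 171 were called higher and 158 lower than in IL1β cells, so many lie off the line. The 12 at the vehicle level and the 12 below it lie near or under 0 on the vertical axis.

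The genes that ended below vehicle included the transcription factor JUN and the phosphatase gene DUSP8, whose protein removes phosphate from JNK and p38. Their promoters are shown because both hold a motif of the CRE type, which JUN and ATF2 pairs bind in vitro. The 250 bases before each RefSeq start (GRCh38.p14, minus strand for both) are given 5′ to 3′, for DUSP8 at chr11:1572272-1572521 and for JUN at chr1:58784048-58784297. The JUN window lies inside the GENCODE 29 gene, which starts further upstream. Capitals mark TGACGTCA in DUSP8 and TGACATCA in JUN.
DUSP8: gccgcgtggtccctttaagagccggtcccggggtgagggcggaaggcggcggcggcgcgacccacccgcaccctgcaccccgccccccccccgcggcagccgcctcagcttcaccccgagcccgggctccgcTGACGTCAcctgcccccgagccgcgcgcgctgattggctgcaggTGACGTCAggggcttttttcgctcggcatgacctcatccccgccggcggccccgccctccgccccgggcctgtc
JUN: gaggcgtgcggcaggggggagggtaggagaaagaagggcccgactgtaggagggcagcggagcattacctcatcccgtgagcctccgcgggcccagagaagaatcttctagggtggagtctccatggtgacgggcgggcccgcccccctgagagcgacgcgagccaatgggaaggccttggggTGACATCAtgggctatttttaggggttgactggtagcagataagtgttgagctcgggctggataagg
The letters TGACGTCA, read on both strands, occurred in 2.92% of the 11220 promoters matched to tested genes, and DUSP8 holds them at 2 places. The looser pattern TGANNTCA, which covers both and was added after these sequences were seen, occurred in 7.64%. It was also found outside the class: 3 of the 10 genes below vehicle with a promoter in the table held it (DUSP8, JUN and KRT34), as did 4 of 9 at the vehicle level, 43 of 399 still raised (10.8%), 16 of 114 higher only with the compound (14%) and 7 of 41 lower only with it (17.1%). Of the 10 below vehicle, none held the AP-1 letters TGANTCA.

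DUSP8 (chr11:1554044-1571920, minus strand, protein coding, GRCh38) had 4.27 and 5.50 CPM in 10 µM cells, 59.4 and 59.7 CPM in IL1β cells and 23.4 and 20.9 CPM in vehicle cells. Both 10 µM libraries lay far under both vehicle libraries, which in turn lay under both IL1β libraries. The difference from vehicle was -2.19 ± 0.15 log2 (SE; n = 2 per group; edgeR quasi-likelihood test, adjusted p = 1.01e-11), or 4.55-fold lower. At 1 µM with IL1β it averaged 17.6 CPM, against a vehicle mean of 22.1 CPM.

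JUN (chr1:58780788-58784327, minus strand) had 76.6 and 86.7 CPM in 10 µM cells, 308 and 325 CPM in IL1β cells and 133 and 146 CPM in vehicle cells. No library of one group overlapped another group. Against vehicle the difference was -0.77 ± 0.07 log2 (adjusted p = 9.9e-09, same test), and at 1 µM JUN averaged 167 CPM, between the IL1β and vehicle means. HBEGF, a ligand of the EGF receptor, had 27.2 and 28.0 CPM in 10 µM cells, 151 and 155 CPM in IL1β cells and 48.2 and 54.6 CPM in vehicle cells (chr5:140332843-140346631, minus strand). Both 10 µM libraries of HBEGF lay under both vehicle libraries, by -0.90 ± 0.08 log2 (adjusted p = 8.74e-09).

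FILIP1L, which encodes a filamin A-interacting protein-like factor, had 42.8 and 41.8 CPM in 10 µM cells, 254 and 273 CPM in IL1β cells and 74.4 and 73.5 CPM in vehicle cells. Its difference from vehicle was -0.81 ± 0.07 log2 (adjusted p = 3.59e-09). The keratin gene KRT34 had 1.33 and 1.32 CPM in 10 µM cells, 7.83 and 7.54 CPM in IL1β cells and 2.86 and 3.07 CPM in vehicle cells, a difference from vehicle of -1.16 ± 0.27 log2 (adjusted p = 0.00145). TGFB2, a ligand of the TGF-β receptors, had 10.8 and 10.5 CPM in 10 µM cells, 33.5 and 37.4 CPM in IL1β cells and 14.2 and 15.5 CPM in vehicle cells. For TGFB2 the difference from vehicle was smaller, at -0.47 ± 0.12 log2 (adjusted p = 0.00419). These 6 genes stayed below vehicle in all 15 alternative fits.

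The other 6 were less firm. The receptor tyrosine kinase gene ROS1 had 0.32 and 0.06 CPM in 10 µM cells, 3.75 and 3.39 CPM in IL1β cells and 1.06 and 1.02 CPM in vehicle cells, and its difference of -2.36 ± 0.72 log2 from vehicle lost its call without replicate 2 of the 10 µM cells (-1.68, adjusted p = 0.081). NPPB, the gene of B-type natriuretic peptide, had 21.2 and 26 CPM in 10 µM cells, 80.4 and 91.0 CPM in IL1β cells and 30.8 and 38.0 CPM in vehicle cells (-0.55 log2, adjusted p = 0.0243). Its call was lost in DESeq2 (adjusted p = 0.0666), without vehicle replicate 2 (-0.384 log2) and without replicate 1 (-0.397 log2) or 2 (-0.697 log2) of the 10 µM cells. SPOCD1 (-0.49 log2, adjusted p = 0.0483) kept its placement in 6 of 15 alternative fits. With all libraries of the groups compared, its call was lost with relative log expression size factors (adjusted p = 0.0541) and without the filter (0.0704). DESeq2 (0.109) and a fit of only the groups compared (0.0734) lost it too. So did fits without vehicle replicate 2 (-0.321 log2), replicate 1 of the 10 µM cells (-0.3 log2) or IL1β replicate 1 (-0.481 log2) or 2 (-0.485 log2). The last 3 fall outside the rule for named genes and were picked after their values were seen. They are the cell-cycle kinase gene CDK6, the activin receptor gene ACVR1C and the unnamed ENSG00000285671, at -0.36, -2.04 and -0.84 log2 from vehicle. CDK6 kept its placement in 5 of 15 alternative fits and ACVR1C in 8. CDK6 lost its call without vehicle replicate 1 (-0.264 log2) and without replicate 1 (-0.352 log2) or 2 (-0.369 log2) of the 10 µM cells. ACVR1C lost it with the replicate block (adjusted p = 0.0556), without vehicle replicate 1 (-1.04 log2) and without replicate 1 of the 10 µM cells (-1.248 log2). ENSG00000285671 lost its call in DESeq2 (adjusted p = 0.0501), without vehicle replicate 1 (-0.879 log2) or 2 (-0.788 log2) and without replicate 1 (-0.778 log2) or 2 (-0.887 log2) of the 10 µM cells.

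**Figure D2:**
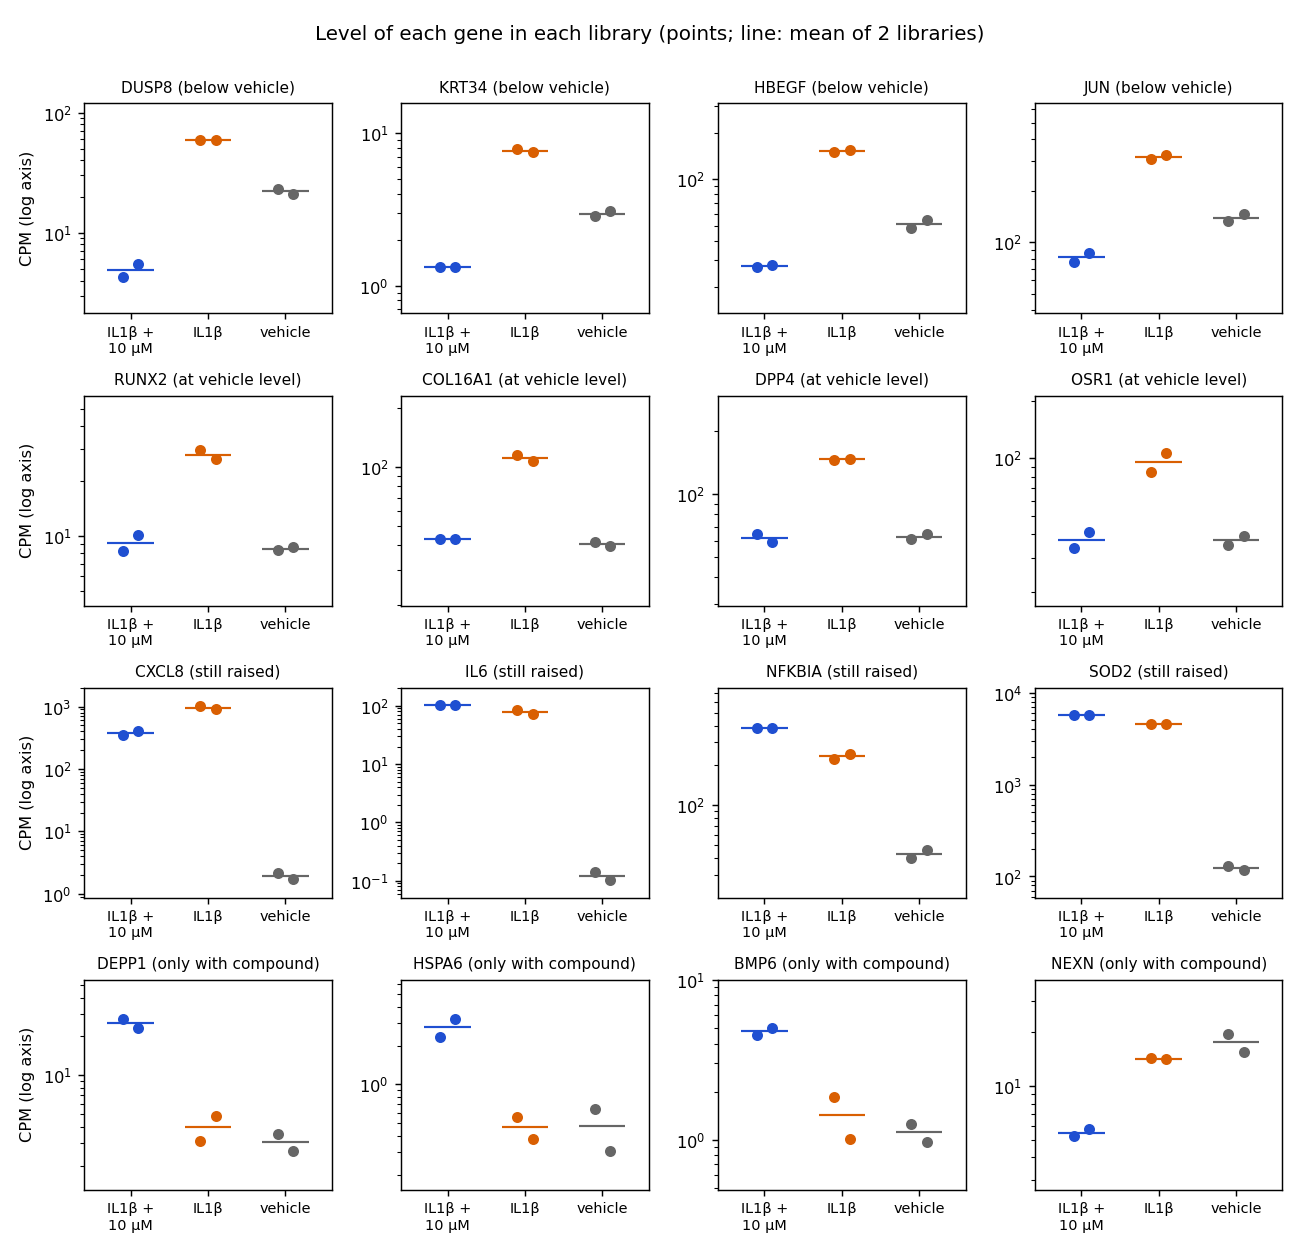
CPM of each library (points) and the mean of 2 libraries (line) on log axes for 16 genes, 4 of each class. DUSP8, KRT34, HBEGF and JUN are lowest in 10 µM cells, RUNX2, COL16A1, DPP4 and OSR1 lie beside vehicle cells, and CXCL8, IL6, NFKBIA and SOD2 lie far above them.

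The 12 genes at the vehicle level had a median difference from vehicle of 0.03 log2 in 10 µM cells and 1.26 log2 in IL1β cells. They were chosen by these differences, so both medians are descriptions. COL16A1, a fibril-associated collagen gene (chr1:31652247-31704319, minus strand), had 43.1 and 43.0 CPM in 10 µM cells, 116 and 108 CPM in IL1β cells and 41.6 and 39.6 CPM in vehicle cells. DPP4, the gene of a surface dipeptidase that cuts chemokines (chr2:161992241-162074542, minus strand), had 64.4 and 58.8 CPM in 10 µM cells, 145 and 148 CPM in IL1β cells and 61.1 and 64.3 CPM in vehicle cells. For DPP4 the 10 µM and vehicle libraries overlapped and the IL1β libraries stood apart. The differences from vehicle were 0.08 ± 0.08 log2 for COL16A1 (adjusted p = 0.477) and -0.02 ± 0.07 log2 for DPP4 (adjusted p = 0.83).

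The transcription factor gene OSR1 (chr2:19351485-19358653, minus strand) had 34.0 and 41.1 CPM in 10 µM cells, 84.3 and 106 CPM in IL1β cells and 35.4 and 39.0 CPM in vehicle cells. Its level did not fall in step with dose: it averaged 95.3 CPM with IL1β alone, 166 CPM with 1 µM added and 37.5 CPM with 10 µM added. COL16A1, DPP4 and OSR1 stayed at the vehicle level in all 15 alternative fits. SLC22A3, an organic cation transporter gene (chr6:160348268-160452581, plus strand), had 58.5 and 55.5 CPM in 10 µM cells, 177 and 173 CPM in IL1β cells and 52.5 and 49.0 CPM in vehicle cells. It lay slightly above vehicle in both libraries, by 0.17 ± 0.08 log2 (adjusted p = 0.096), and it was called once length and GC content of transcripts were corrected for (0.20, adjusted p = 0.025).

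The stress-inducible GADD45A had 49.1 and 61.1 CPM in 10 µM cells, 109 and 114 CPM in IL1β cells and 49.8 and 49.7 CPM in vehicle cells. One 10 µM library lay just under both vehicle libraries and the other above them. TMEM217, which encodes a membrane protein, had 2.08 and 2.27 CPM in 10 µM cells, 6.04 and 7.35 CPM in IL1β cells and 2.35 and 1.94 CPM in vehicle cells. The calcium-binding S100A3 had 5.23 and 6.28 CPM in 10 µM cells, 13.0 and 14.4 CPM in IL1β cells and 5.59 and 5.52 CPM in vehicle cells. GADD45A and S100A3 lost this placement without replicate 1 of the 10 µM cells. TMEM217, placed so in 9 of 15 alternative fits, lost it without any 1 of the 4 libraries compared. The other 4, outside the naming rule and picked after their values were seen, were the GTPase gene RAB32, the lipid-binding SEC14L2, the integrin subunit gene ITGB8 and the actin oxidase gene MICAL2. MICAL2, which kept the placement in 9 of 15 and lost it without IL1β replicate 1, had 278 and 260 CPM in 10 µM cells, 561 and 551 CPM in IL1β cells and 280 and 276 CPM in vehicle cells.

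RUNX2, a transcription factor gene of bone formation (chr6:45328157-45664349, plus strand in GENCODE 29), is shown with its promoter because it holds the AP-1 letters TGAGTCA. It had 8.27 and 10.0 CPM in 10 µM cells, 29.5 and 26.3 CPM in IL1β cells and 8.35 and 8.64 CPM in vehicle cells. The 10 µM libraries lay on either side of the vehicle libraries, and the difference from vehicle was 0.10 ± 0.16 log2 (adjusted p = 0.666). The promoter window is chr6:45328080-45328329, plus strand, from RefSeq (GRCh38.p14), with the AP-1 letters in capitals. The RefSeq start lies inside the GENCODE gene.
RUNX2: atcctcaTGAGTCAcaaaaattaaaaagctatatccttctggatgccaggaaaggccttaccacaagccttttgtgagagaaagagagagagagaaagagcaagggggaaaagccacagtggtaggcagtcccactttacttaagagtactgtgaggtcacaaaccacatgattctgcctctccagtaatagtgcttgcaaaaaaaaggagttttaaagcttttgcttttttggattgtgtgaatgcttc
Of the 9 vehicle-level genes with a promoter in the table, 2 (RUNX2 and S100A3) held TGANTCA on either strand, the AP-1 letters found in 4.14% of all promoters. Both genes lost the vehicle-level placement without replicate 1 of the 10 µM cells.

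**Figure D3:**
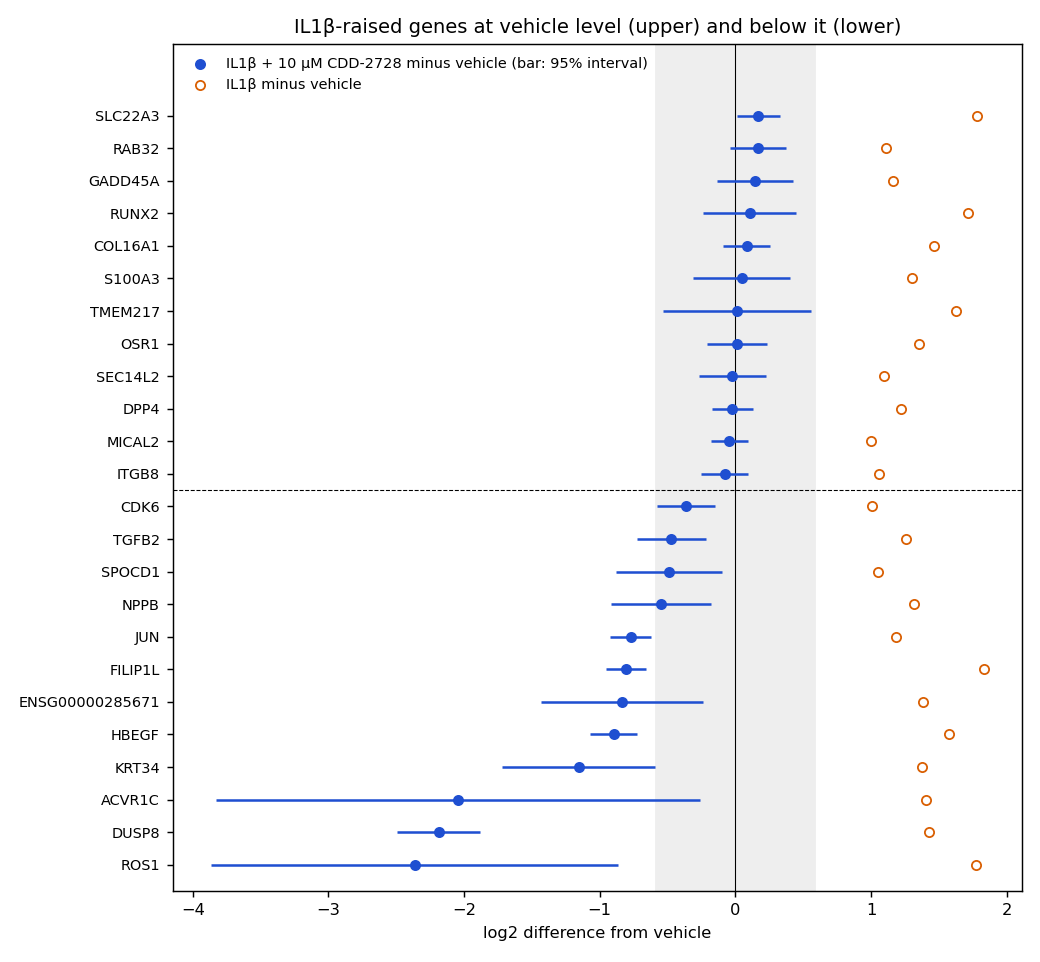
Differences from vehicle (log2) for the 12 IL1β-raised genes at the vehicle level and the 12 below it, with 95% intervals for 10 µM cells. Filled points with bars are 10 µM cells and open points IL1β cells, and the grey band marks 1.5-fold. By the rule that placed them, the vehicle-level genes sit around 0 in 10 µM cells and the other 12 lie to the left of it.

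The 573 genes still raised had a median difference from vehicle of 1.91 log2 in 10 µM cells and 1.82 log2 in IL1β cells, and 475 of them were at least 2-fold above vehicle in 10 µM cells. The class was chosen by these differences, so the medians are descriptions. Set directly against IL1β cells, 171 were called higher in 10 µM cells, 158 lower and 244 neither, where 15.6% of all tested genes were called higher and 15.9% lower. All 29 tested of the 32 members of the chemokine and cytokine list were called higher than vehicle in 10 µM cells (median 4.78 log2). The background there was 18.2% higher and 16.4% lower. In IL1β cells 27 were called higher (background 17.6% higher and 15% lower), a comparison that shares the vehicle libraries. Members near 0 reads in vehicle cells, such as CCL20 and CSF3, passed the filter only through groups given IL1β. The filter thus partly fixes this share. Over the alternatives 20 to 29 members were higher, with 29 under library totals. The number of members tested varies with the filter, so the lowest count need not be out of 29. Of 30 NF-κB pathway and feedback genes, 29 were higher than vehicle and 0 lower in 10 µM cells (median 2.31 log2), and 29 and 0 in IL1β cells. The exception in 10 µM cells, named for that reason, was TNIP2 (0.04 log2).

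CXCL8, the neutrophil attractant interleukin-8 (chr4:73740506-73743716, plus strand), had 353 and 411 CPM in 10 µM cells, 1005 and 915 CPM in IL1β cells and 2.12 and 1.74 CPM in vehicle cells. It stood well below IL1β cells and still far above vehicle. Its difference from vehicle was 7.62 ± 0.26 log2 (edgeR quasi-likelihood test, adjusted p = 1.14e-12), and from IL1β cells -1.33 log2 (adjusted p = 2.17e-06). CXCL2, another neutrophil attractant, went the other way against IL1β: it had 238 and 246 CPM in 10 µM cells, 112 and 121 CPM in IL1β cells and 1.43 and 0.77 CPM in vehicle cells. It was 7.75 ± 0.21 log2 above vehicle and 1.06 log2 above IL1β cells.

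The promoters of these chemokine genes are printed as examples of an AP-1 and of an NF-κB match among still-raised genes, and the marked letters are a description only. Only exact matches are marked: CXCL8 also has a well-known NF-κB site, which the consensus searched did not match. Part of the CXCL8 window lies inside the GENCODE gene. Capitals mark the AP-1 letters TGACTCA in CXCL8 (chr4:73740319-73740568, plus strand) and a pair of overlapping matches to the NF-κB consensus in CXCL2 (chr4:74099196-74099445, minus strand), in RefSeq's GRCh38.p14.
CXCL8: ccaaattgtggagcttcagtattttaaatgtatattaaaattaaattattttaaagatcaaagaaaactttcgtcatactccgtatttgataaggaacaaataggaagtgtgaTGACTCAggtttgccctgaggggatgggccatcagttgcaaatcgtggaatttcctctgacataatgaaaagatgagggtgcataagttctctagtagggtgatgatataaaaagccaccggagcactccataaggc
CXCL2: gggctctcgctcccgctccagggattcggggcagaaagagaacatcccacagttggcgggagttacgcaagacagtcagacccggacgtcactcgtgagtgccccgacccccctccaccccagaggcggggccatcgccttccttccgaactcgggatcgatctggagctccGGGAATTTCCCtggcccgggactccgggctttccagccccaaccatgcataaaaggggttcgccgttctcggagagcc
Among the 399 still-raised genes with a promoter in the table, 84 (21.1%) held the NF-κB consensus on either strand, against 12% of all 11220 promoters, and 39 (9.77%) held TGANTCA, against 4.14%. TGACGTCA was found in 5 (1.25%), against 2.92%. These are counts of letters in a window of 250 bases and not of bound sites.

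Against IL1β cells, 11 of the 29 tested chemokines and cytokines were higher in 10 µM cells, 8 were lower and 10 were not called. IL6, CCL2 and LIF were among the higher ones. IL6 had 102 and 103 CPM in 10 µM cells, 84.5 and 71.5 CPM in IL1β cells and 0.14 and 0.10 CPM in vehicle cells (9.64 ± 0.65 log2 above vehicle). The monocyte attractant CCL2 had 489 and 560 CPM in 10 µM cells, 321 and 337 CPM in IL1β cells and 1.89 and 1.84 CPM in vehicle cells (8.13 ± 0.18 log2 above vehicle). LIF, a cytokine of the IL6 family, had 512 and 555 CPM in 10 µM cells, 337 and 321 CPM in IL1β cells and 25.9 and 24.6 CPM in vehicle cells. For all 3 genes the order was 10 µM cells highest and vehicle cells lowest, with no overlap between groups. For genes near 0 reads in vehicle cells only ratios are given. With 3 reads over the vehicle group as its upper bound, 10 µM cells had at least 266-fold more CCL20, a chemokine, and at least 267-fold more G0S2, which inhibits fat breakdown. CSF3, the granulocyte growth factor, was 1575-fold higher (95% counting interval 282 to 62260), and the acute-phase SAA2 1662-fold (568 to 8062). SAA2 and its close copy SAA1 may share reads, so the split between them is uncertain. SAA1 had 157 and 157 CPM in 10 µM cells, 60.8 and 56.5 CPM in IL1β cells and 0.55 and 0.82 CPM in vehicle cells.

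The NF-κB inhibitor gene NFKBIA had 381 and 387 CPM in 10 µM cells, 225 and 244 CPM in IL1β cells and 40.3 and 46.1 CPM in vehicle cells, 3.15 ± 0.08 log2 above vehicle (adjusted p = 4.32e-19). Mitochondrial superoxide dismutase, SOD2, reached 5694 and 5685 CPM in 10 µM cells, against 4588 and 4584 CPM in IL1β cells and 131 and 118 CPM in vehicle cells. PTGS2, the inducible cyclooxygenase, had 86.2 and 107 CPM in 10 µM cells, 45.1 and 46.6 CPM in IL1β cells and 0.74 and 0.36 CPM in vehicle cells (7.42 ± 0.34 log2 above vehicle). The adhesion molecules split: ICAM1 had 795 and 799 CPM in 10 µM cells, 517 and 519 CPM in IL1β cells and 60.3 and 57.3 CPM in vehicle cells, while VCAM1 had 287 and 320 CPM in 10 µM cells, 470 and 476 CPM in IL1β cells and 36.8 and 38.8 CPM in vehicle cells. ICAM1 was 3.76 log2 and VCAM1 3.01 log2 above vehicle. Of 47 interferon-stimulated genes, 40 were higher than vehicle and 0 lower in 10 µM cells (median 0.85 log2), where 18.2% and 16.4% of all tested genes were. In IL1β cells 43 were higher than vehicle and 0 lower (median 0.90 log2), where 17.6% and 15% of all were. Set against IL1β cells, 8 were higher in 10 µM cells and 15 lower (15.6% and 15.9% of all).

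The neighbouring genes C2CD4A and C2CD4B, which encode nuclear proteins known from inflamed endothelium, stood far above their IL1β level. C2CD4A (chr15:62066977-62070917, plus strand) had 36.5 and 40.0 CPM in 10 µM cells, 5.15 and 4.77 CPM in IL1β cells and 0.18 and 0.26 CPM in vehicle cells, and averaged 13.9 CPM at 1 µM. C2CD4B (chr15:62163535-62165283, minus strand) had 14.7 and 16.5 CPM in 10 µM cells, 1.18 and 1.44 CPM in IL1β cells and 0.46 and 0.36 CPM in vehicle cells, and averaged 2.80 CPM at 1 µM. Against vehicle they were 7.41 ± 0.48 and 5.22 ± 0.39 log2 higher, and against IL1β cells 2.94 and 3.57 log2 higher. The epithelial ETS factor gene ELF3 had 69.2 and 83.3 CPM in 10 µM cells, 40.7 and 49.9 CPM in IL1β cells and 0.14 and 0.31 CPM in vehicle cells.

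A further set of genes stayed raised but far below their IL1β level. INHBA, the activin A subunit, had 6.30 and 6.22 CPM in 10 µM cells, 30.7 and 28.3 CPM in IL1β cells and 1.11 and 0.87 CPM in vehicle cells. SERPINB2, a urokinase inhibitor picked after its values were seen, had 3.36 and 5.68 CPM in 10 µM cells, 90.6 and 93.6 CPM in IL1β cells and 1.57 and 1.69 CPM in vehicle cells, so that its 5.82 log2 rise with IL1β stood at 1.46 log2 (adjusted p = 6.36e-05). In both genes the 10 µM libraries lay between the other groups without overlap.

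Tenascin C, TNC, a matrix glycoprotein of tissue injury, had 87.0 and 102 CPM in 10 µM cells, 562 and 623 CPM in IL1β cells and 77.5 and 79.3 CPM in vehicle cells. Its difference from vehicle, 0.27 ± 0.08 log2 (adjusted p = 0.0147), was not called without vehicle replicate 1 (0.0795), without replicate 2 of the 10 µM cells (0.278) or with library totals (0.151). Some genes near vehicle stayed unplaced because their intervals were wide. The bZIP factor gene CREB5 had 2.40 and 3.41 CPM in 10 µM cells, 16.7 and 18.8 CPM in IL1β cells and 2.95 and 3.58 CPM in vehicle cells, -0.17 ± 0.26 log2 from vehicle (adjusted p = 0.642). Interstitial collagenase, MMP1, had 7.10 and 5.98 CPM in 10 µM cells, 16.7 and 14.2 CPM in IL1β cells and 4.85 and 6.24 CPM in vehicle cells (0.25 log2, adjusted p = 0.267). In both genes the 10 µM and vehicle libraries overlapped.

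Within the AP-1 and related bZIP list, 11 of 20 tested members were higher in 10 µM than in vehicle cells and 2 lower (median 1.13 log2). Of all tested genes 18.2% were higher and 16.4% lower. In IL1β cells 14 members were higher than vehicle and 1 lower (17.6% and 15% of all). JUN and JUND (-0.28 log2) were the members that fell in 10 µM cells. JUNB, in contrast to JUN, had 201 and 249 CPM in 10 µM cells, 97.5 and 109 CPM in IL1β cells and 31.2 and 29.2 CPM in vehicle cells, 2.90 ± 0.11 log2 above vehicle and 1.13 log2 above IL1β cells. Of the 20 MAP kinase phosphatase and Sprouty feedback genes, 15 were higher than vehicle in 10 µM cells and 1, DUSP8, lower (12 and 2 with library totals). In IL1β cells 16 of them were higher than vehicle and 0 lower. SPRY4, an inhibitor of receptor-to-ERK signalling, had 37.7 and 40.2 CPM in 10 µM cells, 12.7 and 8.86 CPM in IL1β cells and 3.97 and 3.32 CPM in vehicle cells. The ERK phosphatase DUSP6 had 18.3 and 22.8 CPM in 10 µM cells, 6.10 and 6.47 CPM in IL1β cells and 3.32 and 2.81 CPM in vehicle cells. Both were highest in 10 µM cells, with differences from vehicle of 3.41 and 2.74 log2, where the JNK and p38 phosphatase DUSP8 was lowest there.

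The genes of the JNK kinases differed little from vehicle. MAPK8 (JNK1) had 34.8 and 33.1 CPM in 10 µM cells and 28.6 and 31.0 CPM in vehicle cells (0.19 log2, adjusted p = 0.123), and with the correction for length and GC content it was called (0.243, adjusted p = 0.0352). MAPK9 (JNK2) had 57.5 and 56.8 CPM in 10 µM cells and 67.3 and 71.4 CPM in vehicle cells (-0.28 log2, adjusted p = 0.00831), a call lost without vehicle replicate 2 (0.0877) and without replicate 2 of the 10 µM cells (0.0555). MAPK10 (JNK3) differed by 0.36 log2 (adjusted p = 0.416). Of 30 JNK and MAP kinase pathway genes, 8 were higher and 5 lower, shares near the 18.2% and 16.4% of all tested genes, against 4 and 10 with library totals, and 2 were lower without replicate 2 of the 10 µM cells and 3 without either vehicle replicate.

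**Figure D4:**
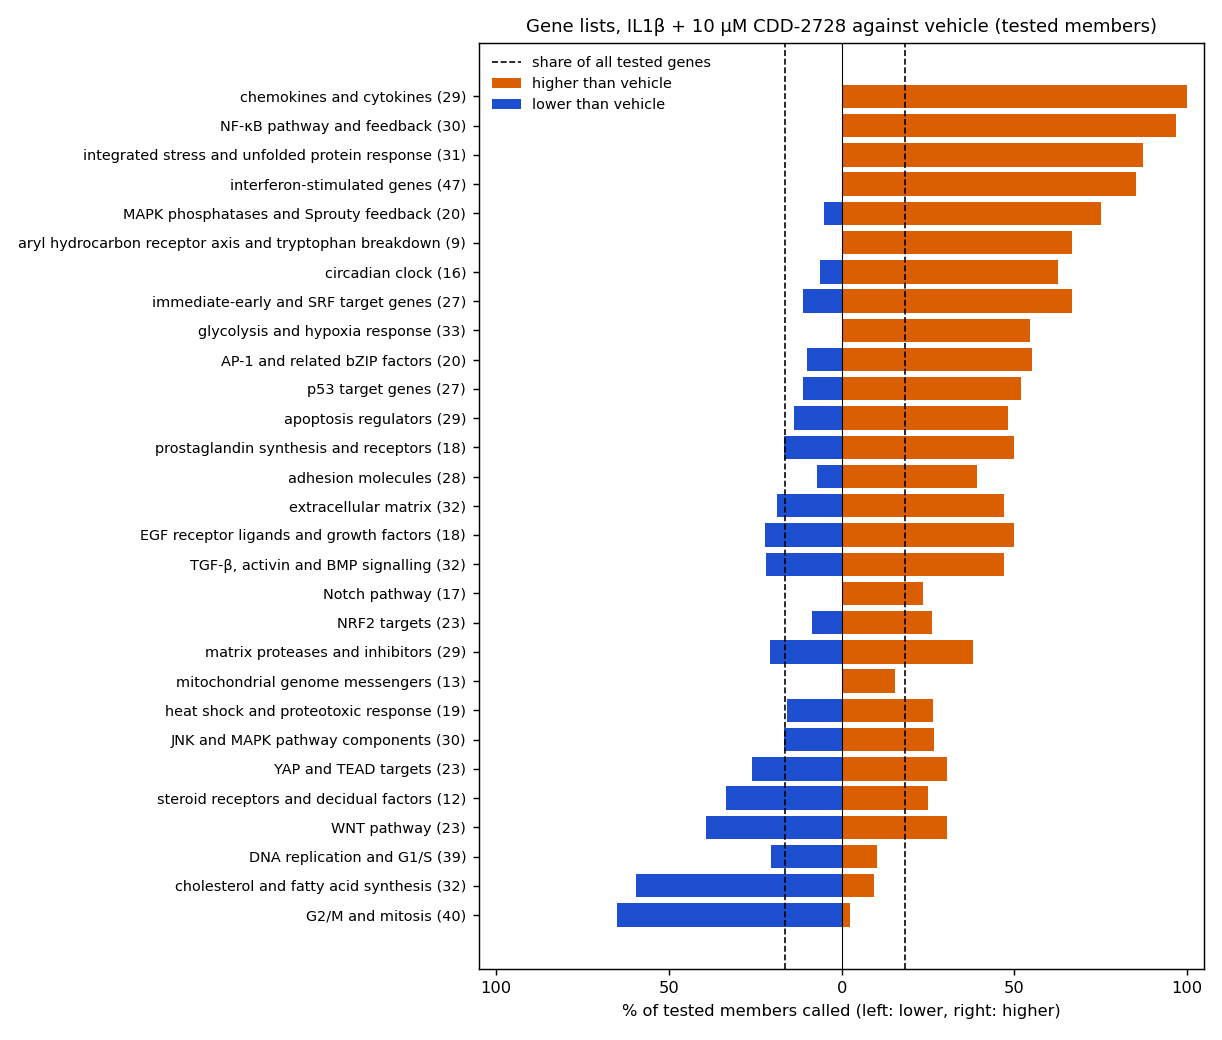
Share of the tested members of each gene list called higher (right, orange) or lower (left, blue) in 10 µM than in vehicle cells, with the number tested in brackets; dashed lines mark the 18.2% and 16.4% of all tested genes. Chemokines and cytokines, with 29 of 29 higher, stand at the top and the G2/M list, with 26 of 40 lower, at the bottom. The filter partly fixes the chemokine share, since members near 0 reads in vehicle cells passed it only through groups given IL1β.

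IL1β lowered 490 genes by at least 2-fold (3.11% of those tested). In 10 µM cells 255 of them (52.0%) were still called lower than vehicle, 25 (5.1%) stood at the vehicle level, 11 (2.24%) were above it and 199 (40.6%) could not be placed. The vehicle-level count was 14 and 15 without vehicle replicate 1 or 2 and 16 and 15 without replicate 1 or 2 of the 10 µM cells, and the count above vehicle was 6 without vehicle replicate 2. The prostaglandin E receptor gene PTGER3 had 16.7 and 19.6 CPM in 10 µM cells, 7.39 and 5.78 CPM in IL1β cells and 19.6 and 19.6 CPM in vehicle cells, -0.11 log2 from vehicle (adjusted p = 0.56). TSC22D3, a glucocorticoid-induced leucine zipper gene, had 26.6 and 22.0 CPM in 10 µM cells, 8.62 and 8.42 CPM in IL1β cells and 19.2 and 22.3 CPM in vehicle cells. In both, the IL1β libraries stood apart and 10 µM and vehicle libraries lay close together.

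KDR, the main VEGF receptor, ended above vehicle, with 49.7 and 42.6 CPM in 10 µM cells, 13.8 and 13.6 CPM in IL1β cells and 33.2 and 35.6 CPM in vehicle cells. The difference of 0.43 ± 0.10 log2 (adjusted p = 0.00123) was not called without replicate 1 of the 10 µM cells (0.316 log2, adjusted p = 0.0528). KDR is also the leading member of the endothelial marker list, whose sum was 67.0 and 60.9 CPM in 10 µM cells and 50.3 and 55.2 CPM in vehicle cells, with EMCN and ERG at or near 0 reads. SLC7A8 and AARD, picked after their values were seen, were above vehicle in all 15 alternative fits. The amino acid transporter gene SLC7A8 had 16.6 and 13.7 CPM in 10 µM cells, 2.74 and 2.57 CPM in IL1β cells and 5.49 and 5.73 CPM in vehicle cells (1.44 log2, adjusted p = 3.65e-07). AARD had 19.2 and 16.4 CPM in 10 µM cells, 3.97 and 2.70 CPM in IL1β cells and 9.97 and 7.16 CPM in vehicle cells.

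Among the genes furthest below vehicle, some also fell with IL1β alone and others did not. TXNIP, a thioredoxin-binding regulator of glucose uptake, had 4.54 and 5.14 CPM in 10 µM cells, 18.8 and 25.2 CPM in IL1β cells and 26.5 and 34.2 CPM in vehicle cells, -2.65 ± 0.19 log2 from vehicle. EGR1, an immediate-early transcription factor gene, had 1.014 and 1.494 CPM in 10 µM cells, 2.52 and 1.44 CPM in IL1β cells and 8.03 and 7.67 CPM in vehicle cells. For EGR1 the 10 µM and IL1β libraries overlapped, whereas for TXNIP they did not. PDGFB, a mitogen for mesenchymal cells, had 6.46 and 7.41 CPM in 10 µM cells, 40.2 and 37.0 CPM in IL1β cells and 30.2 and 32.4 CPM in vehicle cells, 4.51-fold lower than vehicle (-2.17 ± 0.12 log2, adjusted p = 4.47e-13). AJUBA, a LIM protein of the Hippo pathway, had 63.8 and 54.9 CPM in 10 µM cells, 162 and 162 CPM in IL1β cells and 216 and 218 CPM in vehicle cells.

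Genes changed only with the compound were called and at least 2-fold from vehicle in 10 µM cells, called in the same direction against IL1β cells, and neither called nor 1.5-fold from vehicle in IL1β cells. There were 163 higher (1.04% of those tested, 127 protein coding) and 68 lower (0.432%, 40 protein coding). The groups were chosen by these differences, so their medians of 1.404 and -1.317 log2 are descriptions. At 1 µM CDD-2728 with IL1β, which the rule did not use but which shares the vehicle libraries, the medians were 0.25 and -0.54 log2. With 1 µM CDD-3013 and IL1β, likewise not used by the rule, they were 0.19 and -0.69 log2. DEPP1, a gene induced by FOXO factors and fasting (chr10:44970981-44978810, minus strand), had the largest difference from vehicle among these higher genes with a mean of at least 2 CPM in 10 µM cells, with 27.5 and 23.4 CPM in 10 µM cells, 3.13 and 4.84 CPM in IL1β cells and 3.51 and 2.61 CPM in vehicle cells. IL1β and vehicle libraries overlapped, and both 10 µM libraries lay above them by 3.05 ± 0.19 log2 (adjusted p = 3e-12 against vehicle). At 1 µM it averaged 4.78 CPM.

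FOS, the partner of JUN in AP-1 (chr14:75278774-75282230, plus strand), had 9.45 and 11.1 CPM in 10 µM cells, 2.52 and 1.70 CPM in IL1β cells and 2.31 and 2.66 CPM in vehicle cells, 2.05 ± 0.21 log2 above vehicle (adjusted p = 2.45e-08). ID1, a BMP-responsive inhibitor of basic helix-loop-helix factors (chr20:31605283-31606515, plus strand), had 305 and 318 CPM in 10 µM cells, 88.0 and 97.5 CPM in IL1β cells and 97.0 and 101 CPM in vehicle cells. BMP6, a ligand of the BMP receptors, had 4.54 and 5.02 CPM in 10 µM cells, 1.846 and 1.005 CPM in IL1β cells and 1.25 and 0.97 CPM in vehicle cells. In each of the 3 genes the 10 µM libraries lay above those of IL1β and vehicle cells, and the IL1β and vehicle libraries overlapped. The rise of ID1 was not particular to 10 µM cells: it averaged 173 CPM at 1 µM CDD-2728 and 268 CPM with 1 µM CDD-3013. FOS averaged 3.05 and 4.20 CPM in these groups and BMP6 1.69 and 1.11 CPM. Haem oxygenase, HMOX1 (chr22:35380361-35394214, plus strand), had 35.1 and 34.9 CPM in 10 µM cells, 12.3 and 13.1 CPM in IL1β cells and 12.4 and 13.9 CPM in vehicle cells, and averaged 19.96 CPM at 1 µM. The inducible chaperone HSPA6 had 2.35 and 3.23 CPM in 10 µM cells, 0.56 and 0.38 CPM in IL1β cells and 0.65 and 0.31 CPM in vehicle cells. The clock gene PER1 had 49.3 and 46.7 CPM in 10 µM cells, 24.7 and 25.4 CPM in IL1β cells and 23.8 and 19.6 CPM in vehicle cells, and 10 of 16 clock genes were higher than vehicle in 10 µM cells and 1 lower (18.2% and 16.4% of all tested genes), against 6 and 4 in IL1β cells (17.6% and 15%).

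Among the lower genes were CARD10 and NEXN. CARD10, a scaffold that links receptors to NF-κB (chr22:37490362-37519542, minus strand), had 19.5 and 20.7 CPM in 10 µM cells, 50.1 and 54.0 CPM in IL1β cells and 55.0 and 56.2 CPM in vehicle cells, -1.47 ± 0.09 log2 from vehicle. NEXN, an actin-filament protein gene (chr1:77888513-77943895, plus strand), had 5.29 and 5.74 CPM in 10 µM cells, 14.3 and 14.1 CPM in IL1β cells and 19.7 and 15.5 CPM in vehicle cells. Both 10 µM libraries lay under all others in each gene. At 1 µM the means were 38.8 CPM for CARD10 and 9.09 CPM for NEXN, between IL1β and 10 µM cells. The AP-1 letters TGANTCA were found in 8 of the 114 promoters of higher genes (7.02%), against 4.14% of all, and TGACGTCA in 3 (2.63%), against 2.92%.

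**Figure D5:**
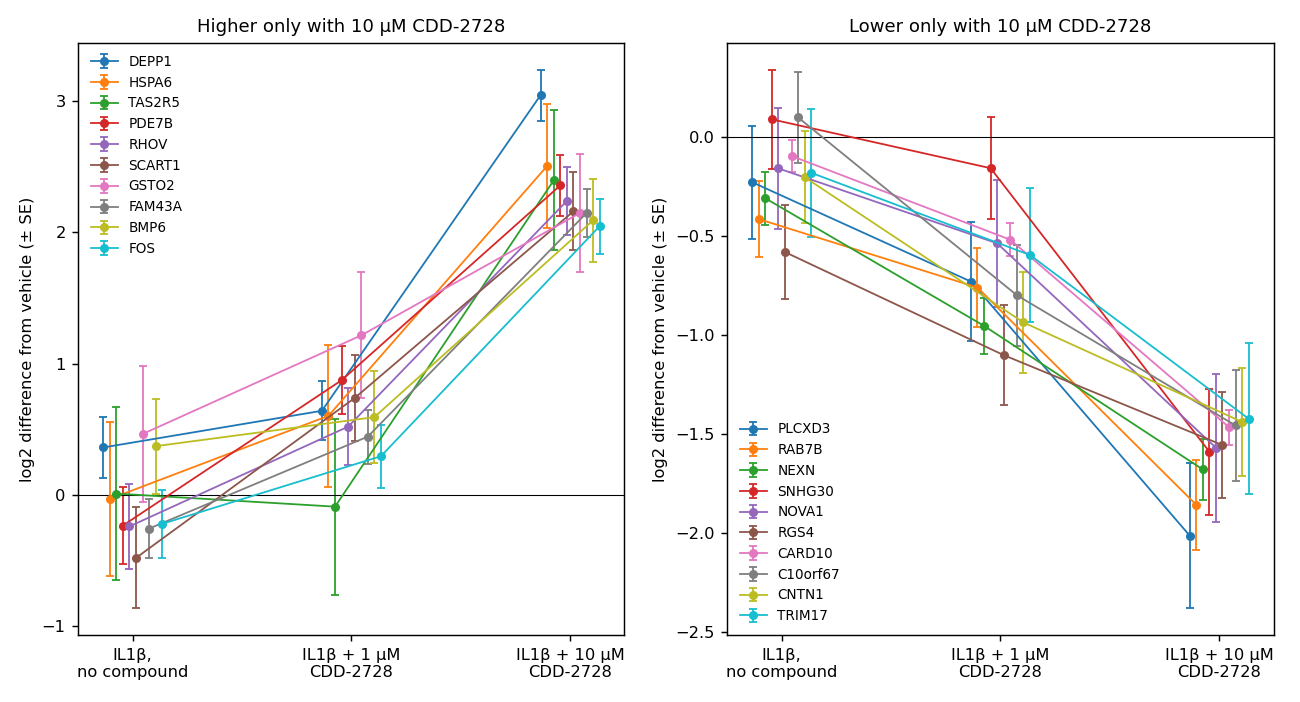
Log2 difference from vehicle (± SE, n = 2 libraries a group) for the 10 named genes highest and the 10 lowest among those changed only with the compound, over IL1β alone, 1 µM and 10 µM CDD-2728. DEPP1 reaches 3.05 log2 at 10 µM, and the genes lie nearer to 0 at 1 µM.

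Other gene lists are read against the 18.2% of all tested genes called higher than vehicle and the 16.4% called lower in 10 µM cells, and the 17.6% and 15% in IL1β cells. Of 31 tested genes of the integrated stress and unfolded protein responses, 27 were higher in 10 µM than in vehicle cells and 0 lower (median 0.83 log2, against -0.01 for all tested genes), compared with 22 and 3 in IL1β cells. The glutathione-degrading CHAC1, a target of ATF4, had 52.6 and 56.7 CPM in 10 µM cells, 14.8 and 14.7 CPM in IL1β cells and 5.31 and 5.52 CPM in vehicle cells, 3.33 ± 0.16 log2 above vehicle. The growth inhibitor DDIT4, picked after its values were seen, had 239 and 273 CPM in 10 µM cells, 73.4 and 78.7 CPM in IL1β cells and 12.8 and 17.7 CPM in vehicle cells. Both were highest in 10 µM cells and lowest in vehicle cells, without overlap, and ATF4 and DDIT3, also picked afterwards, rose by 1.09 and 1.35 log2. HSPA5, the chaperone BiP, likewise picked afterwards, stood 1.06 log2 above vehicle in 10 µM cells and 0.88 log2 in IL1β cells.

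In the G2/M and mitosis list 26 of 40 genes were lower in 10 µM cells and 1 higher (median -0.28 log2; 16.4% of all tested genes were called lower), compared with 8 lower and 3 higher in IL1β cells, and over the alternatives 19 to 32 were lower. The cyclin gene CCNB2 had 68.5 and 66.6 CPM in 10 µM cells, 83.4 and 89.2 CPM in IL1β cells and 104 and 119 CPM in vehicle cells. ANLN, the cytokinesis scaffold anillin, had 281 and 257 CPM in 10 µM cells, 419 and 437 CPM in IL1β cells and 398 and 394 CPM in vehicle cells, -0.56 log2 from vehicle. The exception was CDC25B, the phosphatase that activates the mitotic kinase, with 502 and 516 CPM in 10 µM cells, 299 and 319 CPM in IL1β cells and 253 and 273 CPM in vehicle cells (0.95 log2). Of 39 DNA replication and G1/S genes 4 were higher and 8 lower, against 3 and 17 with library totals.

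Of 32 cholesterol and fatty acid synthesis genes 19 were lower in 10 µM cells and 3 higher (median -0.25 log2), but 1 was higher without vehicle replicate 2 or replicate 1 of the 10 µM cells, and 12 were lower without vehicle replicate 1 and 8 without replicate 2 of the 10 µM cells. HMGCS1, an early enzyme of the pathway, had 443 and 362 CPM in 10 µM cells, 552 and 486 CPM in IL1β cells and 695 and 618 CPM in vehicle cells. Matrix proteases and inhibitors had 11 higher and 6 lower of 29 (7 higher without vehicle replicate 1 or replicate 2 of the 10 µM cells), compared with 16 and 3 in IL1β cells. Of 18 growth factor genes 9 were higher and 4 lower, the lower ones being HBEGF, PDGFB, PDGFA (-0.98 log2, adjusted p = 5.73e-06) and the receptor gene ERBB3 (-1.53 log2), of which PDGFA and ERBB3 were named after their values were seen. VEGFA was 2.48 log2 above vehicle in 10 µM cells, where IL1β alone gave 1.65 log2.

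Of 33 glycolysis and hypoxia genes 18 were higher than vehicle in 10 µM cells and 0 lower (median 0.27 log2), compared with 18 and 1 in IL1β cells (median 0.32 log2). Set against IL1β cells, 5 were higher in 10 µM cells and 4 lower. With library totals 14 were higher than vehicle and 1 lower. Hexokinase 2, HK2, had 266 and 279 CPM in 10 µM cells, 133 and 136 CPM in IL1β cells and 30.69 and 25.97 CPM in vehicle cells, and the glucose transporter gene SLC2A3 had 169 and 186 CPM in 10 µM cells, 54.3 and 56.5 CPM in IL1β cells and 36.2 and 39.0 CPM in vehicle cells. In both genes the 10 µM libraries stood highest, and SLC2A3 was 2.24 log2 above vehicle in 10 µM cells against 0.56 log2 in IL1β cells. Of 27 p53 target genes 14 were higher and 3 lower, led by the stress cytokine GDF15 with 32.6 and 37.8 CPM in 10 µM cells, 9.62 and 11.3 CPM in IL1β cells and 2.35 and 3.17 CPM in vehicle cells. Apoptosis regulators had 14 higher and 4 lower of 29, compared with 13 and 2 in IL1β cells. Among them the death receptor gene FAS had 23.0 and 21.8 CPM in 10 µM cells, 12.9 and 13.1 CPM in IL1β cells and 5.31 and 5.52 CPM in vehicle cells. NRF2 targets had 6 higher and 2 lower of 23, a higher share near the 18.2% of all genes. The heat shock list had 5 higher and 3 lower of 19 (9 higher with the length and GC correction), and its near-identical members HSPA1A and HSPA1B cannot be read apart.

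Immediate-early and SRF target genes had 18 higher and 3 lower of 27, compared with 13 and 4 in IL1β cells. PHLDA1, an early growth-factor response gene, had 60.0 and 70.7 CPM in 10 µM cells, 40.5 and 38.1 CPM in IL1β cells and 6.74 and 7.98 CPM in vehicle cells. Of 9 genes of the aryl hydrocarbon receptor axis and tryptophan breakdown 6 were higher and 0 lower, and likewise 6 and 0 in IL1β cells. The tryptophan dioxygenase gene TDO2 had 6.46 and 8.01 CPM in 10 µM cells, 2.07 and 2.70 CPM in IL1β cells and 0.14 and 0.15 CPM in vehicle cells. Prostaglandin synthesis and receptor genes had 9 higher and 3 lower of 18 (1 lower without vehicle replicate 1 or replicate 2 of the 10 µM cells). The receptor gene PTGFR was among the lower ones, with 22.85 and 19.01 CPM in 10 µM cells, 27.7 and 26.3 CPM in IL1β cells and 55.0 and 53.7 CPM in vehicle cells. Adhesion molecules had 11 higher and 2 lower of 28 (10 and 4 with library totals), compared with 17 and 6 in IL1β cells.

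Extracellular matrix genes had 15 higher and 6 lower of 32 (11 and 9 with library totals), compared with 16 and 3 in IL1β cells. COL8A1, a short-chain collagen gene, had 29.3 and 30.1 CPM in 10 µM cells, 9.90 and 9.67 CPM in IL1β cells and 6.05 and 4.70 CPM in vehicle cells, whereas the fibrillar COL1A1 had 2180 and 2226 CPM in 10 µM cells, 3258 and 3200 CPM in IL1β cells and 3199 and 2873 CPM in vehicle cells. The collagen genes thus lay on opposite sides of vehicle, at 2.46 and -0.46 log2. TGF-β, activin and BMP genes had 15 higher and 7 lower of 32 (11 lower with library totals), and BMP4 had 16.8 and 16.3 CPM in 10 µM cells, 23.6 and 24.6 CPM in IL1β cells and 74.4 and 73.1 CPM in vehicle cells. WNT genes had 7 higher and 9 lower of 23, YAP and TEAD targets 7 and 6 of 23, Notch genes 4 and 0 of 17, and steroid receptors and decidual factors 3 and 4 of 12. Messengers of the mitochondrial genome had 2 higher and 0 lower of 13 (4 higher with the length and GC correction). The higher shares of the Notch and mitochondrial lists are near the 18.2% of all tested genes. HAND2, a decidual transcription factor gene, had 34.3 and 37.5 CPM in 10 µM cells, 22.2 and 27.3 CPM in IL1β cells and 49.4 and 52.5 CPM in vehicle cells, and so lay between the other groups.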

How the data were processed

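The submitters' processing notes name hg38, STAR, featureCounts and fastp; their settings, strand included, were not given in the sources used here. Whole-number counts per gene and library were deposited by the authors, and all 10 columns were used. Counts were filtered with filterByExpr (minimum count 10), scaled by TMM and fitted for all 10 libraries in edgeR 4.0.16 (quasi-likelihood, robust, 5 residual degrees of freedom; R 4.3.3; tested on simulated data), with Benjamini-Hochberg adjustment over 15740 genes and Wald SEs not below counting error. DESeq2 1.42.0 was an alternative. Symbols came from a reference list (the ID with more reads kept a shared symbol), coordinates from GENCODE 29 on GRCh38, and promoters from RefSeq. Intervals of ratios and the bound of 3 reads cover counting error only.

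Named genes are part of those taken by a rule. It took the 10 largest called differences in each direction and the 8 or 10 most changed of each class. These needed a mean of at least 2 CPM in the highest group compared and no clone, antisense or pseudogene name. Except for vehicle-level genes, they also needed no overlap between 10 µM and vehicle libraries. Up to 4 per list, by smallest adjusted p, and a standing set such as JUN, FOS and CXCL8 were taken without these conditions. The comparison, lists and rule were chosen with earlier results of these data known.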

Additional observations from a re-analysis of the deposited data

How the results depend on the processing

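No named gene that was called against vehicle, either as reported or in the alternative, reversed its direction there. Changes of sign in genes called in neither fit were not counted. Counts did shift their balance with library totals: 2107 genes were higher and 4125 lower than vehicle (2870 and 2586 with TMM), and 4 JNK and MAP kinase pathway genes were higher and 10 lower (8 and 5 with TMM). With library totals 396 IL1β-lowered genes were still lowered and 43 were at the vehicle level. With a minimum of 5 CPM in 2 libraries, 159 were still lowered, and 62 genes were higher and 20 lower only with the compound; fewer genes were tested there. DESeq2 put 16 IL1β-lowered genes at the vehicle level and 5 above it, and 108 genes higher only with the compound. A 1.5-fold minimum of the IL1β response gave 935 raised genes still raised, 70 at the vehicle level and 27 below it, and 512 lowered genes still lowered, 200 at the vehicle level and 43 above it. A 4-fold minimum gave 249, 0 and 0 of the raised genes and 49, 0 and 0 of the lowered ones. A 2-fold bound of the vehicle level put 24 raised and 83 lowered genes there, and a 1.5-fold minimum for compound genes gave 310 higher and 218 lower. Leaving out 1 library at a time gave 2227 to 2846 genes higher and 1663 to 2419 lower, 535 to 552 still raised, 10 to 18 at the vehicle level and 7 to 10 below it. Of the lowered genes it gave 191 to 229 still lowered, 14 to 35 at the vehicle level and 6 to 12 above it, and it gave 112 to 145 genes higher and 53 to 79 lower only with the compound. The median difference of all genes then ran from -0.016 to 0.003 log2. Some of the alternatives leave fewer genes or samples, and the cause of these shifts was not tested. The labels do not say whether libraries with the same replicate number were made together. Deviations of replicate 1 from the group mean correlated at r = 0.046 over genes between 10 µM and vehicle cells. Replicate 2 only mirrors replicate 1 there, so this low value cannot exclude a shared batch. With the replicate block 2797 genes were higher and 2494 lower, and ACVR1C was not called (adjusted p = 0.0556). With 2 libraries a group and counts near 0 in vehicle cells, the folds of genes such as CSF3 are known only to the width of their counting intervals.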
